A study of Mus musculus with 9 samples.

Results

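Cathepsins are proteases that work mainly in lysosomes, and the genes described here are Ctsa, Ctsb, Ctsc, Ctsd, Ctsh, Ctsl, Ctss and Ctsz, together with Lgmn, the asparaginyl endopeptidase legumain, and Cst3, the inhibitor cystatin C. They were taken by gene symbol from the platform's probe table, which gave rows for 9 of the 10 genes, namely 19 of 17664 spotted cDNA clones and 9 of 8146 gene symbols. No row carried the symbol of Ctss in that table, and Ctss was not analysed here. The log2 ratio of each clone was read on every array, and the clones of a gene were averaged per array.

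The arrays measured stroma cut by laser from prostate sections of male FVB mice hemizygous for CR2-TAg, in which cryptidin-2 regulatory elements drive SV40 large T antigen in prostatic neuroendocrine cells. Invasive cancer stroma came from 6 mice of 24 weeks with metastases (replicates 1 to 6), and stroma beside prostatic intraepithelial neoplasia (PIN) from 3 mice of 10 weeks (replicates 2, 3 and 4). Mice of both groups carried the transgene. The invasive mice were also the older ones, and effects of stage and of age cannot be told apart. The study also cut stroma out to a greater distance from the epithelium in invasive sections, and an effect of that distance cannot be told apart either. Samples were labelled with Cy5 and a pool of the study's PIN samples with Cy3 throughout, so each value is a log2 ratio of sample over pool, the dyes were not swapped, and each PIN sample was set against a pool that contained it. The question was how stroma beside invasive growth differs from stroma beside preinvasive lesions.

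Each array held 17189 to 17206 values, with array medians of -0.0034 to 0.008 and SDs of 0.69 to 0.81 on invasive arrays and 0.539 to 0.569 on PIN arrays. Over all clones, PIN replicate 4 had a correlation of 0.176 and 0.189 with the other PIN arrays, below its 0.293 with the nearest invasive array. Invasive replicate 3 had correlations of 0.256 to 0.561 within its own group and at most 0.529 with a PIN array, and it is singled out here for its low values in the cathepsin genes. Results that rest on these 2 arrays are given with and without them. Leaving out the lowest invasive or the highest PIN value of a gene raises its difference by construction, so such fits are a description and no support.

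Lysosomal proteases are made as inactive precursors, reach the lysosome mostly through mannose 6-phosphate receptors and are activated there in the acid lumen, in part by each other. The cysteine cathepsins (B, C, H, L and Z) cut or trim proteins through an active-site cysteine, cathepsin D uses a pair of aspartates, cathepsin A is a serine carboxypeptidase, and legumain cuts after asparagine and helps to mature several cathepsins. Cells also secrete them, and in tumors stromal macrophages and fibroblasts are known sources that can break down extracellular matrix, while cystatin C is a secreted inhibitor that blocks cysteine cathepsins outside the cell.

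RefSeq promoter sequence (build GRCm38.p6) is shown for the 4 members whose windows held the letters CACGTG, the core of a motif described upstream of many lysosomal genes. The windows ran from 250 bases before to 50 bases after a start site, and 7 of the 9 measured members had 1 or more, 9 windows in all. The letters stood in 4 of these 9 windows and in 7.15% of all 32851 mouse windows of this length, and the longer TCACGTGA in windows of 2 members (Ctsa and Ctsd) and in 0.974% of all windows. Each motif is its own reverse complement, so both strands are covered, and every longer match is also a shorter one. Positions below count from the start site, and CACGTG is in capitals. A match is a description of the letters only.
Ctsd, chr7:142387828-142388077, minus strand, the 250 bases before the start, with matches beginning at -245 and -98: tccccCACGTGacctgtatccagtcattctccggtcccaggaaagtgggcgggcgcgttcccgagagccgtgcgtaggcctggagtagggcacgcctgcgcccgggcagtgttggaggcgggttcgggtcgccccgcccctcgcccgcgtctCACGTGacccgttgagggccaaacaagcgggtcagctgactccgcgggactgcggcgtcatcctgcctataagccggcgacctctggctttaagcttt
Ctsa, chr2:164833743-164833772, plus strand, before the downstream of its starts, with a match beginning at -12 (another, beginning at 6, lies after the start and is not shown): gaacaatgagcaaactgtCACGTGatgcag
Ctsl, chr13:64370739-64370768, minus strand, with a match beginning at -236: ggcgttagaagcCACGTGctgatctaaatt
Lgmn, chr12:102439124-102439153, minus strand, before the downstream of its starts, with a match beginning at -49: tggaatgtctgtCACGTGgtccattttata

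Transcripts of 7 of the 9 measured genes were higher in invasive cancer stroma than in PIN stroma: Ctsa, Ctsb, Ctsc, Ctsd, Ctsl, Ctsz and Lgmn, by 2.63-fold for Ctsa to 5.62-fold for Lgmn. The background was 3.75% of the 8106 genes tested that were called higher in the same fit. Calls were made at an adjusted p under 0.15 (limma, two-sided, Benjamini-Hochberg over all genes), the false discovery rate the study used. At an adjusted p under 0.05 the calls were 4 of 9 (Ctsz, Ctsc, Ctsb and Lgmn), where 0.703% of all genes were called higher. None of the 9 was called lower by limma, none was lower at an unadjusted p under 0.05, and 1.89% of all genes were called lower. The median difference of the 9 genes was 1.62 on the log2 scale, against 0.02 for all genes tested. The lowest invasive value exceeded the highest PIN value in 6 of the 9 genes, and in 4.86% of all genes. The count of 7 fell to 1 without PIN replicate 2 and to 3 when PIN replicate 3 was left out instead. Those fits called 0.346% and 0.827% of all genes higher. The count was 8 without invasive replicate 3, without PIN replicate 4, or without both of these, in fits that called 7.43%, 3.21% and 8.69% of all genes higher. Those arrays held the lowest invasive or the highest PIN value of several of the 9 genes, so that rise is no support. All 7 calls ended under a two-sample test with equal variances, which called 0.444% of all genes higher. The study singled out several of these genes on arrays that include these, so their direction here is not independent evidence. It also reported Ctsc, Ctsd and Lgmn higher by quantitative RT-PCR in animals not used for its arrays. For cathepsins B, D and Z it reported protein staining in invasive tumor stroma and higher levels in blots of cultured fibroblasts. In such bulk stroma, more cells of a type and more RNA per cell cannot be told apart.

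**Figure D1:**
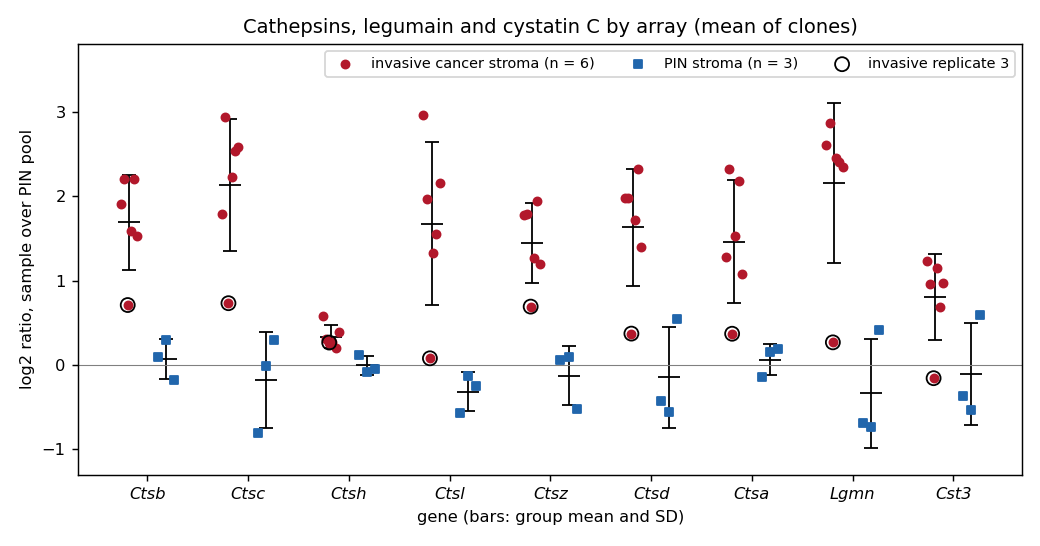
Log2 ratio of sample over PIN pool (vertical axis) for each measured gene (horizontal axis), as the mean of its clones, on 6 invasive arrays (red circles, left) and 3 PIN arrays (blue squares, right), with the group mean and SD as bars and invasive replicate 3 ringed. In 8 of the 9 genes invasive replicate 3 is the lowest red point, and Ctsh lies near 0 in both groups.

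Among the cysteine cathepsins, Ctsc (4 clones, chromosome 7, 88278024-88315861) showed the widest difference. Its product, dipeptidyl peptidase I, activates serine proteases of immune cell granules. The lowest, median and highest log2 ratios on the 6 invasive arrays were 0.73, 2.37 and 2.94, against -0.80, -0.02 and 0.30 on PIN replicates 2, 3 and 4. The groups did not overlap, and invasive replicate 3 held the lowest invasive value by more than 1 unit. Ctsc averaged 2.13 ± 0.79 in invasive cancer stroma (SD, n = 6) and -0.17 ± 0.57 in PIN stroma (SD, n = 3), a difference of 2.31 (SE 0.42, limma adjusted p = 0.0322). Without PIN replicate 2 it was 1.99 and no longer called (limma adjusted p = 0.171).

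The 4 Ctsc clones did not give the same size of difference. The values were 2.56, 2.78 and 2.43 for clones 1, 3 and 4, against 1.45 for clone 2, and on single arrays the clones lay up to 1.68 apart (invasive replicate 4). Clone 2 was also the Ctsc clone whose groups overlapped, with 0.22 on invasive replicate 3 against 0.24 on PIN replicate 3. All 4 were called higher in the fit of single clones (limma adjusted p = 0.0305, 0.148, 0.0528 and 0.0307 for clones 1 to 4).

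Ctsb (2 clones, chromosome 14, 63122462-63145923) encodes cathepsin B, which acts as an endopeptidase and also trims dipeptides from carboxyl ends. It gave 0.71, 1.74 and 2.20 as the lowest, median and highest invasive values, against 0.09, 0.29 and -0.18 on PIN replicates 2, 3 and 4. All invasive arrays were above all PIN arrays, which stayed close to the pool. The means were 1.69 ± 0.56 in invasive cancer stroma and 0.07 ± 0.24 in PIN stroma, a difference of 1.62 (SE 0.31, limma adjusted p = 0.0366). Clone 1 differed by 1.97 and clone 2 by 1.27, and both were called (limma adjusted p = 0.0305 and 0.118). Leaving out PIN replicate 2 ended the gene's call (difference 1.63, limma adjusted p = 0.158).

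Ctsz (2 clones, chromosome 2, 174427494-174439039), a carboxypeptidase that removes single residues, had the smallest p of the 9 genes, rank 33 of 8106. Invasive values ran from 0.69 through a median of 1.52 to 1.94, and PIN values were 0.06, 0.09 and -0.53 on replicates 2, 3 and 4. The groups were separate, and the PIN array lowest in Ctsz was replicate 4. The difference was 1.57 (SE 0.28, limma adjusted p = 0.0303), from 1.44 ± 0.48 in invasive cancer stroma and -0.13 ± 0.35 in PIN stroma. Its 2 clones gave 1.55 and 1.59. Of the 7 called genes, Ctsz alone kept its call whichever single array was left out, but like the others it lost it under the equal-variance test (adjusted p = 0.177 over all genes).

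Ctsl (2 clones, chromosome 13, 64361890-64370772) encodes cathepsin L, an endopeptidase. Its 6 invasive values had the widest spread, with 0.08 at the lowest, a median of 1.76 and 2.96 at the highest, against -0.57, -0.13 and -0.25 on PIN replicates 2, 3 and 4. Invasive replicate 3 lay just above the PIN arrays and replicate 1 well above all others. The mean was 1.67 ± 0.96 in invasive cancer stroma and -0.32 ± 0.23 in PIN stroma, a difference of 1.99 (SE 0.47, limma adjusted p = 0.0620). Separate clones of Ctsl agreed closely, at 1.93 and 2.04, and on the median array lay 0.10 apart, so the spread between arrays was not a spread between spots. With a single array per mouse, it cannot be split into parts from mouse, dissection and hybridization. The call ended without PIN replicate 2 (limma adjusted p = 0.255) or PIN replicate 3 (limma adjusted p = 0.185).

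Ctsh (1 clone, chromosome 9, 90054267-90076095), an aminopeptidase with some endopeptidase activity, stood apart from the other cysteine cathepsins. Its invasive values were 0.20, 0.29 and 0.58 (lowest, median and highest), and PIN replicates 2, 3 and 4 had 0.12, -0.09 and -0.05. Every invasive array was above every PIN array, but the difference was 0.34 (SE 0.17) and did not pass the test (limma adjusted p = 0.372). It was also the gene of the 9 whose invasive array of lowest value was not replicate 3 but replicate 5. No alternative called it, and its difference stayed between 0.29 and 0.40.

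Cathepsin D, the aspartic endopeptidase, was measured by 5 clones (chromosome 7, 142375910-142387827). Ctsd gave 0.37, 1.85 and 2.32 as lowest, median and highest on the invasive arrays, against -0.43, -0.55 and 0.54 on PIN replicates 2, 3 and 4. The groups overlapped at 1 point, since PIN replicate 4 was above invasive replicate 3, while the other 5 invasive arrays were at or above 1.40. The means were 1.63 ± 0.69 in invasive cancer stroma and -0.15 ± 0.60 in PIN stroma, 3.43-fold (difference 1.78, SE 0.39, limma adjusted p = 0.0565). Without those 2 arrays, which held its lowest invasive and highest PIN values, the difference was 2.37, a rise fixed by that choice. The call ended without PIN replicate 2 (limma adjusted p = 0.239) or PIN replicate 3 (limma adjusted p = 0.210).

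Of the Ctsd clones, 4 were called higher, with differences of 1.85, 2.02, 1.83 and 1.98 for clones 2 to 5 (limma adjusted p = 0.0769, 0.0556, 0.0697 and 0.110). Clone 1 differed by 1.21 (SE 0.36) and did not pass (limma adjusted p = 0.181). On invasive replicate 3 all 5 clones were low, at 0.20 to 0.49, and on PIN replicate 4 all 5 were above 0, at 0.19 to 0.83. The low invasive and the high PIN value of the gene were therefore not those of a single spot.

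Ctsa (1 clone, chromosome 2, 164832872-164841032) encodes cathepsin A, which besides its carboxypeptidase activity holds lysosomal beta-galactosidase and neuraminidase 1 in a stable complex. Its log2 ratios were 0.37, 1.40 and 2.32 at the lowest, median and highest invasive array, against -0.15, 0.15 and 0.19 on PIN replicates 2, 3 and 4. The groups did not overlap, and PIN values were within 0.2 of the pool. The difference of 1.40 (SE 0.37, limma adjusted p = 0.0941) came from 1.46 ± 0.73 in invasive cancer stroma and 0.06 ± 0.18 in PIN stroma. Its call was the least stable of the 7, ending without invasive replicate 4, invasive replicate 5, PIN replicate 2 or PIN replicate 3 (limma adjusted p = 0.169, 0.163, 0.318 and 0.239). The messages of its partners gave 0.09 (SE 0.20) for Glb1, beta-galactosidase, and -0.01 (SE 0.29) for Neu1, neuraminidase 1, and neither passed (limma adjusted p = 0.888 and 0.989).

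Lgmn (1 clone, chromosome 12, 102394082-102439728) had the highest difference of the 9 genes. On invasive arrays it ran from 0.27 through a median of 2.43 to 2.87, and on PIN replicates 2, 3 and 4 it was -0.69, -0.73 and 0.41. Invasive replicate 3 was far below the other 5, which lay between 2.34 and 2.87, and was also below PIN replicate 4. The means were 2.16 ± 0.94 in invasive cancer stroma and -0.33 ± 0.65 in PIN stroma, a difference of 2.49 (SE 0.49, limma adjusted p = 0.0431). Without invasive replicate 3 the invasive mean was 2.53 ± 0.21 (SD, n = 5), and without both arrays the difference was 3.24. The higher mean and difference were fixed by leaving out the lowest invasive and the highest PIN value. The call ended without PIN replicate 2 (limma adjusted p = 0.190) or PIN replicate 3 (limma adjusted p = 0.168).

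Cst3 (1 clone, chromosome 2, 148871722-148875512), the inhibitor, was higher by 0.92 (SE 0.33) and did not pass the test (limma adjusted p = 0.198). Its invasive values were -0.16, 0.97 and 1.24 (lowest, median and highest), against -0.37, -0.54 and 0.59 on PIN replicates 2, 3 and 4. The same 2 arrays made the overlap, since PIN replicate 4 was above invasive replicate 3 and below the other 5 invasive arrays, whose lowest value was 0.69. The means were 0.81 ± 0.51 in invasive cancer stroma and -0.11 ± 0.61 in PIN stroma. Cst3 was called without invasive replicate 3 (difference 1.11, limma adjusted p = 0.0371), without PIN replicate 4 (1.26, 0.109) and without both (1.46, 0.00778), so whether it counted as changed depended on these arrays. They held its lowest invasive and highest PIN values, so leaving them out had to raise the difference, and these calls are no support.

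**Figure D2:**
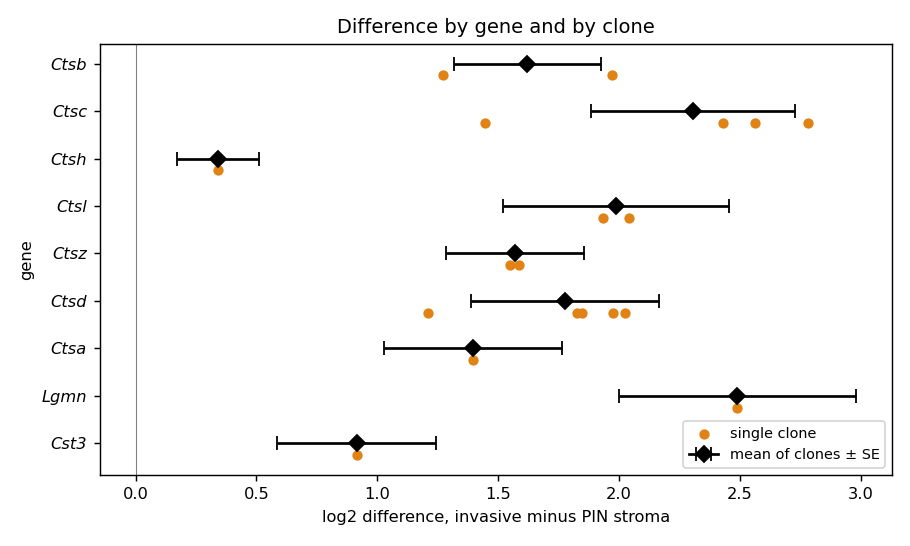
Log2 difference, invasive minus PIN stroma (horizontal axis), for each gene (vertical axis), with the mean of clones and its SE from limma as black diamonds and bars and single clones as orange points. All 19 clones lie to the right of 0, with Ctsh lowest and 1 clone each of Ctsc and Ctsd below the others of their gene.

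Over single spots, 16 of the 19 clones were called higher at an adjusted p under 0.15, where 1.52% of all 17207 clones tested were, and 4 at an adjusted p under 0.05 (Ctsb clone 1, Ctsc clones 1 and 4 and Ctsz clone 1), where 0.343% were. The clones that did not pass were those of Cst3 and Ctsh and clone 1 of Ctsd. Clones of a gene share their target and are no replicates of a condition. The count was 0 when PIN replicate 2 was left out, 4 for PIN replicate 3 and 11 for PIN replicate 4. Of all clones, 29, 53 and 179 were called higher in those fits, against 261 in the main fit. The member count was 10, 8, 9 and 10 without invasive replicates 2, 4, 5 and 6, and 18 without invasive replicate 3. Over all clones the counts were 122, 88, 101, 155 and 809 in that order.

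Most of the 9 genes shared the same lowest invasive array. Each mouse had a single array, so differences between mice, dissections and hybridizations cannot be told apart. The mean of the 9 genes was 1.79, 1.93, 0.37, 1.50, 1.78 and 1.52 on invasive replicates 1 to 6, against -0.30, -0.17 and 0.11 on PIN replicates 2, 3 and 4. Invasive replicate 3 was the lowest invasive array in 18 of 19 clones. The share of all clones lowest on that array was not counted, so this is not shown to be particular to these genes. The highest invasive value fell on replicate 2 in 4 genes, on replicate 1 in 3 and on replicate 5 in 2. PIN replicate 4 was the highest PIN array in 5 genes (Ctsa, Ctsc, Ctsd, Lgmn and Cst3). It was the lowest in Ctsb (-0.18) and Ctsz (-0.53).

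The gap between a protease and Cst3 on the same array shows whether their messages differed from the pool by like amounts, and it is given as a description. Cathepsins D and A are not cysteine proteases, and Cst3 serves there only as a common gene of comparison. The gap is the log2 ratio of the protease minus that of Cst3. For Lgmn it was 0.42 to 1.90 over the 6 invasive arrays, against -0.32, -0.19 and -0.18 on PIN replicates 2, 3 and 4. In Ctsd it was 0.43 to 1.64 on invasive arrays, against -0.06, -0.01 and -0.05 on PIN arrays. For these 2 genes the groups did not overlap, although the log2 ratios themselves did. Ctsc also separated, narrowly, at 0.56 to 1.97 on invasive arrays and at most 0.52 on PIN arrays. The share of all genes that separate by such a gap was not counted, so the separation is a description only. The gaps of Ctsa, Ctsb, Ctsl and Ctsz were above 0 on all 6 invasive arrays, but overlapped with those of PIN stroma. The log2 ratios of these genes themselves did not overlap between the groups. Ctsh was below Cst3 on 5 of 6 invasive arrays, with a mean gap of -0.47 ± 0.45 there and 0.10 ± 0.64 on PIN arrays. Over the 8 proteases the median difference of the gap between invasive and PIN stroma was 0.78, and it was 0.49 without PIN replicate 4.

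**Figure D3:**
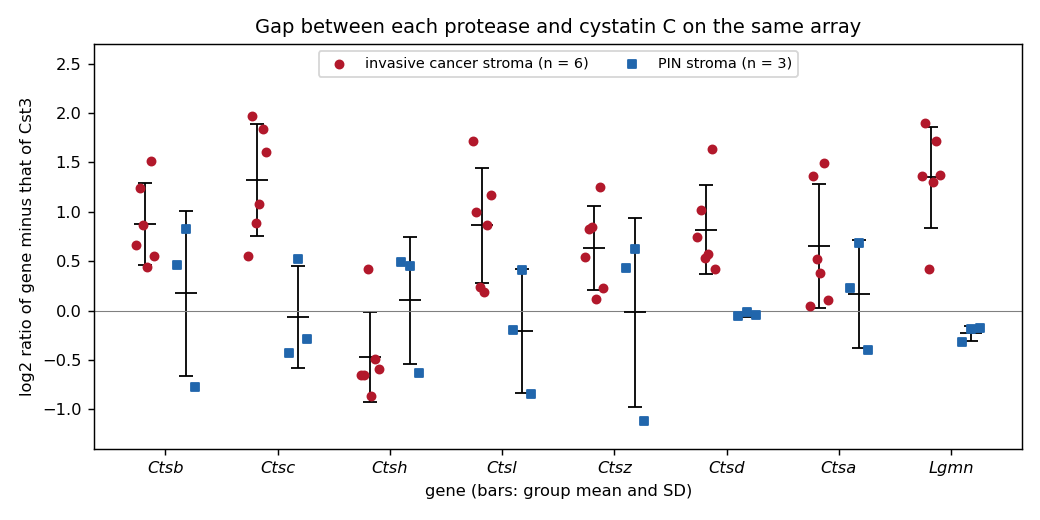
Log2 ratio of each protease gene minus that of Cst3 on the same array (vertical axis), for 6 invasive arrays (red circles, left) and 3 PIN arrays (blue squares, right), with group mean and SD as bars. For Lgmn, Ctsd and Ctsc the red points lie above all blue points, and for Ctsh 5 of 6 red points lie below 0. The share of all genes that would separate in this way was not counted.

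Other genes of the pathway were counted from lists of textbook members, in the fit that called 3.75% of all genes higher. Of 20 other cathepsin-class and lysosomal exopeptidase genes 5 were tested, and 1 was called higher: Cts8, a cathepsin of the rodent placenta, at 0.32 ± 0.30 in invasive cancer stroma and -0.53 ± 0.44 in PIN stroma (difference 0.85, SE 0.24, limma adjusted p = 0.119). The others were Dpp7, Prcp, Tpp1 and Cts7, with differences of 0.90, 0.78, 0.54 and 0.12, and did not pass. The list's median was 0.78, against 0.02 for all genes.

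Of 26 cystatin-class inhibitors 4 were tested besides Cst3, and limma called none. At an unadjusted p under 0.05, 2 were higher, where 9.18% of all genes were. Ahsg, fetuin-A, a plasma glycoprotein with cystatin domains, gave 1.23 (SE 0.43, limma adjusted p = 0.186), and Cstb, the cytosolic inhibitor cystatin B, gave 0.58 (SE 0.23, limma adjusted p = 0.243). Of 19 genes of lysosomal sorting, lysosomal membranes and their regulators 13 were tested, and limma again called none. The list median was 0.13, and 2 of the 13 were higher at an unadjusted p under 0.05, against the same 9.18% of all genes. Lamp2, a lysosomal membrane protein, gave 0.65 (SE 0.25, limma adjusted p = 0.233), and Scarb2, the membrane receptor that carries glucocerebrosidase to lysosomes, 0.72 (SE 0.30, limma adjusted p = 0.273). The receptors M6pr and Igf2r, which sort proteases by their mannose 6-phosphate, gave 0.43 and -0.09. M6pr, Igf2r, Glb1, Neu1 and the 4 proteases beside Cts8 were named for their roles, with their values known.

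Macrophage markers and some of those of fibroblasts and endothelium were higher in invasive cancer stroma as well, and their part in the differences was not tested. The fit that called these markers called 3.75% of all genes higher. Of 11 macrophage markers 4 were measured, and all 4 were called higher in invasive cancer stroma: Ms4a6d by 3.17 and Fcgr3, an Fc receptor, by 2.77 (limma adjusted p = 0.00409 each), Lyz2, lysozyme, by 3.21 (limma adjusted p = 0.0228) and Laptm5 by 1.48 (limma adjusted p = 0.0640). Their median was 1.34 on invasive replicate 3 and 2.90 to 3.17 on the other invasive arrays, against -0.47 to 0.42 on PIN arrays. The invasive array of lowest value was replicate 3, as for the cathepsin mean and for the fibroblast and endothelial medians. Csf1r, Cd68, Adgre1 and the C1q genes were not analysed here.

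Of 11 fibroblast markers 8 were measured and 3 called higher: the collagen genes Col3a1 and Col1a2 by 1.55 each (limma adjusted p = 0.0431 and 0.0458) and Pdgfrb by 1.14 (limma adjusted p = 0.0602). The median of the 8 was 0.18 on invasive replicate 3 and 1.08 to 1.36 on the other invasive arrays, against -0.32 to 0.19 on PIN arrays. Col1a1, Dcn, Vim, Lum and Pdgfra did not pass, with differences of 0.35, 0.14, 0.61, 1.24 and 0.96. At an unadjusted limma p under 0.05, 6 of the 8 fibroblast markers were higher, where 9.18% of all genes were. Of 5 endothelial markers measured, Esam was called higher by 1.53 (limma adjusted p = 0.0230), and the medians were 0.32 to 1.64 on invasive and -0.01 to 0.14 on PIN arrays. Of 2 smooth muscle markers, Myh11, the smooth muscle myosin heavy chain, was lower by 2.57 on the log2 scale (-2.57, SE 0.78, limma adjusted p = 0.136), and Cnn1, calponin, gave 0.07 (SE 0.20) and did not pass (limma adjusted p = 0.924). The other 4 endothelial markers, named to complete the list, did not pass. Tie1, Cdh5, Tek and Pecam1 gave 1.08, 0.90, 1.28 and 0.27. At an unadjusted limma p under 0.05, 4 of the 5 endothelial markers were higher, against the same 9.18% of all genes. The study listed Cdh5 and Pecam1 as induced, by the most significant clone of a gene and over its own set of arrays, whereas clones were averaged here. Of all genes, 3.75% were called higher and 1.89% lower in the same fit.

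Of 8 prostate epithelial markers 3 were measured and limma called none, with 0 at an unadjusted p under 0.05. At that level 9.18% of all genes were higher and 5.8% lower. Cdh1 gave -0.36 (limma adjusted p = 0.535) and Krt18 -0.74 (limma adjusted p = 0.676). Epcam, an epithelial surface protein named after its values were seen, was 1.36 on invasive replicate 3 and -1.44 to -0.33 on the other invasive arrays, against 1.43 on PIN replicate 4 and -1.57 and -2.44 on PIN replicates 2 and 3. Krt18 was likewise highest on these arrays within each group, at -0.01 on invasive replicate 3 and 0.65 on PIN replicate 4. Cdh1 was -0.11 on invasive replicate 3, below 4 of the other 5 invasive arrays, and highest among PIN arrays on replicate 4, at 0.25. Of 5 neuroendocrine and 5 lymphocyte markers, 0 were measured here.

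**Figure D4:**
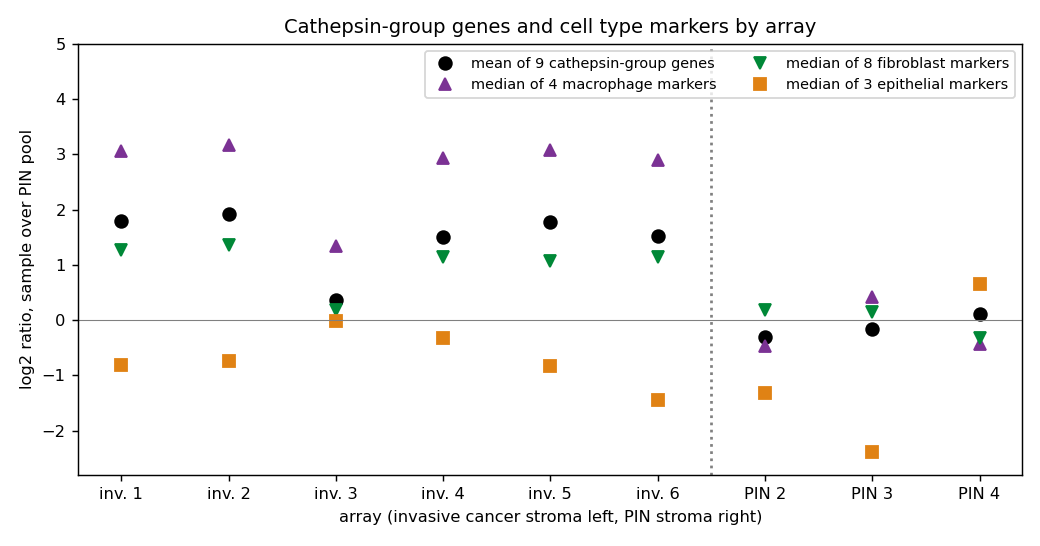
Mean log2 ratio of the 9 measured genes (black circles) and median log2 ratio of 4 macrophage, 8 fibroblast and 3 epithelial markers (colored symbols) on each array, with the 6 invasive arrays left of the dotted line and the 3 PIN arrays right of it. On invasive replicate 3 the cathepsin mean is 0.37, the macrophage median 1.34 and the fibroblast median 0.18, each the lowest of the invasive arrays. The epithelial median there is the highest of the invasive arrays.

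The 5 other genes nearest to the mean profile of the cathepsin group were found by root mean square difference over all 9 arrays, among 8078 genes with a value on each. They were Col14a1, a fibril-associated collagen (0.206), Esam, an adhesion molecule of endothelial junctions (0.231), Gja1, a connexin of gap junctions (0.260), Il13ra1, a receptor chain for interleukin 13 (0.302), and Litaf, a protein of late endosomes (0.315). For comparison, members lay 0.286 (Ctsd) to 1.03 (Ctsh) from the mean that they themselves made. Col14a1 was 0.18 on invasive replicate 3 and 1.33 to 2.17 on the other invasive arrays, against -0.40, -0.38 and -0.10 on PIN replicates 2, 3 and 4. Their differences between invasive cancer and PIN stroma were 1.77, 1.53, 1.32, 1.38 and 1.49 in the order named. Choosing genes by this profile on the same arrays fixed that direction, so these differences are a description with no test.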

How the data were processed

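The authors microdissected stroma, amplified its RNA in 2 rounds, labelled samples with Cy5 and the PIN pool with Cy3, hybridized arrays of spotted mouse cDNA clones and quantified spots with ScanAlyze. Each deposited value is a log2 ratio, sample against pool, after the authors' lowess normalization within print-tip groups. They did not subtract background. Spot intensities and clone sequences were not used here, so dim spots were not filtered, and binding of related cathepsin messages to a clone was not assessed. Array number limits the precision.

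Of 17664 rows, 457 held no value. The probe table held 1 symbol for 12563 rows, none for 4689 and several for 412, and only rows with 1 symbol entered gene tests. A linear model of invasive minus PIN stroma was fitted with limma 3.58.1 under R 4.3.3 (eBayes, two-sided) to each gene or clone that had 4 or more invasive and 2 or more PIN values. Benjamini-Hochberg adjustment ran over 8106 genes or 17207 clones. A gene or clone was called at an adjusted p under 0.15, with 0.05 beside it. The p-values measure the spread between arrays of single mice. Errors are the SE of the difference or the SD between arrays.

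The members and lists were chosen with earlier results of these data known. Named genes are all members; of each list the called genes of smallest p, at most 4, or 2 where none was called; and the 5 genes nearest to the mean profile. Others are marked. Alternatives were other thresholds, tests, weights, normalizations, filters, ways to combine clones, a replicate block and leaving out arrays. The fit was tested on simulated data. Promoters came from RefSeq (GRCm38.p6). Tables were made with pandas 2.3.3 and numpy 2.4.6 under Python 3.11.15, and figures with matplotlib 3.10.9.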

Additional observations from a re-analysis of the deposited data

Results flagged for a closer look

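Of 24 sets of 6 invasive values (9 genes and the single clones of genes with several), 3 held an array far from the others, and in each it was invasive replicate 3. Chance alone flags about 1 in 20 such sets, and the sets are not independent because they share their arrays. Lgmn was 0.27 there and 2.34 to 2.87 on the other invasive arrays, a gap of 0.799 of the whole range, where 0.625 was the critical value. Ctsb clone 1 was 0.93 there and 2.02 to 2.60 on the others (0.652 of the range), and Ctsd clone 2 was 0.20 and 1.70 to 2.32 (0.707 of the range).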

How the results depend on the processing

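No gene changed direction under any of 23 alternatives. Of the 9 genes 7 were called higher, and the count was 4 at an adjusted p under 0.05, 5 by a two-sample test with unequal variances, 0 by one with equal variances and 1 to 8 over the fits without 1 array each. Of the 19 clones 16 were called, and the count was 4 at 0.05, 1 by the unequal-variance test, 0 by the equal-variance test, 13 after quantile normalization and 0 to 18 without 1 array each. Over all clones, 261 were called higher as reported and 59 at 0.05. The unequal-variance test called 39 of all clones higher and the equal-variance test 25. That number was 208 after quantile normalization and 29 to 809 without 1 array each. Few genes of any kind passed these stricter tests: 1.75% of all genes were called higher by the unequal-variance test and 0.444% by the equal-variance test, against 3.75% as reported, and 0.346% without PIN replicate 2. The study's methods name a two-sample test without stating which variances were assumed. The single other protease called, Cts8, was lost at 0.05, which left 0. Array weights called 8 genes and 18 clones, with 12.5% of all genes and 1540 of all clones called higher. The median gap to Cst3 ranged from 0.49 to 1.06. A fit without both invasive replicate 3 and PIN replicate 4, the alternatives of the gap and single genes by their clone of widest values were chosen after seeing the data.

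With the replicate number as a replicate block, 0 genes and 0 clones of the group were called. That fit called 0.95% of all genes and 34 of all clones higher. Only numbers 2, 3 and 4 held arrays of both groups, so its comparison rested on those arrays. The loss of calls there cannot be told from the loss of arrays. Arrays of the same number did not deviate together (r = -0.138, -0.0492 and -0.0449 for numbers 2, 3 and 4), which gave no sign of a pairing. With so few arrays, these correlations cannot exclude one.

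With 3 PIN arrays, the spread of PIN stroma is poorly known, and leaving out PIN replicate 2 or 3 cost more calls than leaving out any invasive array. Signal over background was not used, so how dim spots limit these ratios was not tested.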
